A study of Mus musculus with 28 samples.

Results

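The genes described here are type I interferon-stimulated genes, a list of 35 names set by known membership of the response, with earlier results of these arrays already known. Of the 35, 31 had a probe set that names that gene alone, among 17097 genes measured this way, and Isg15, Oas1a, Bst2 and Ifi44 were not analysed here. Each gene was read from 1 probe set, the one with the highest mean over all 28 arrays, and 10 of the 31 genes had several.

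The arrays measured total RNA of CD45+ cells, that is leukocytes, sorted from tumours grown in mice, with no culture before lysis. Control hosts were Foxp3Cre-YFP mice, in which the promoter of Foxp3, the lineage factor of regulatory T cells, drives a Cre recombinase with a yellow fluorescent protein. The other hosts were Nrp1L/LFoxp3Cre-YFP mice, which carry the same Cre together with an Nrp1 allele written L/L, the usual form of a conditional (loxP-flanked) allele of Nrp1, the neuropilin-1 receptor, so that the deletion is directed to Foxp3-expressing cells and not to the other leukocytes of the tumour. They are called control and Nrp1-deleted hosts below. The tumours were B16.F10, a mouse melanoma line, and MC38, a mouse colon carcinoma line. Each tumour was sampled at 3 times, days 6, 12 and 18 for MC38 and an early time followed by days 12 and 18 for B16, which with the genotypes makes 12 groups. The early B16 arrays are titled as day 8 and described as day 6 in another label, and are called early. B16 day 18 and MC38 day 12 had 3 arrays of each genotype and the other settings 2. No label gives the age or sex of the mice or says whether an array stands for 1 mouse or a pool.

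Type I interferons (the interferon-alpha family and interferon-beta) bind the receptor formed by Ifnar1 and Ifnar2, whose kinases Jak1 and Tyk2 phosphorylate Stat2. With Irf9 it forms part of the complex called ISGF3, which binds the interferon-stimulated response element in promoters and turns on genes that block virus replication, sense foreign nucleic acid, amplify the response or shut it off. In tumours the same genes mark leukocytes that have met interferon, and many of them also answer to interferon-gamma or, through Irf3, directly to nucleic acid sensing.

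The response element is shown first because it is the sequence that ISGF3 binds in promoters. The core, GAAA followed by any 2 bases and GAAA again, which reads TTTC, 2 bases and TTTC on the other strand, was searched on both strands in the RefSeq promoter windows of mouse build GRCm38.p6, from 250 bases before to 50 bases after each gene's start, counting overlapping matches. Of the 35 listed genes 26 had a promoter in that table and 11 of them (42.3%) held the core, against 1079 of 27025 genes in all (3.99%). Among the measured genes it was found in 8 of 22 (36.4%), namely Eif2ak2, Ifih1, Ifit1, Ifit3, Oas3, Rsad2, Stat2 and Trim30a. With 1 mismatch allowed among the 8 fixed letters, 20 of the 22 held it, and so did 38.9% of all genes. The windows below are written 5′ to 3′ on the gene's own strand, and the capitals mark the 8 fixed letters of each match.
Ifit1, chr19:34640770-34640828, plus strand: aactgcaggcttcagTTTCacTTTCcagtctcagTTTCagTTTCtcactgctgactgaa
Ifit3, chr19:34583358-34583431, plus strand: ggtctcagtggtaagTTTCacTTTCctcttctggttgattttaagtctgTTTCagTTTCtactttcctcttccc
Oas3, chr5:120777710-120777749, minus strand: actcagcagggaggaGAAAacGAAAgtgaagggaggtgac
Rsad2, chr12:26456548-26456587, minus strand: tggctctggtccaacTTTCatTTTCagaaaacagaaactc
Stat2, chr10:128270261-128270300, plus strand: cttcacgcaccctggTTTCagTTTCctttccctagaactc
Trim30a, chr7:104465205-104465244, minus strand: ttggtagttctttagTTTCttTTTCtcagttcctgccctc
Ifit1 and Ifit3 each held 2 matches, in Ifit1 starting 104 and 85 bases before the gene's start and in Ifit3 starting 156 and 122 bases before it. The matches shown for the others started 36 bases before the start in Trim30a, 75 in Oas3, 120 in Rsad2 and 222 in Stat2. Trim30a held another match downstream of or across its start, as did Eif2ak2 and Ifih1, and those windows are not shown. The matches are a description of these letters and show no binding.

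All values are log2 values as deposited, so a difference of 1 is a doubling, and a difference below is Nrp1-deleted minus control, ± its standard error, unless it is named otherwise. It came from limma, fitted to the 12 group means over 28 arrays, with p-values adjusted by Benjamini-Hochberg over all 17097 genes, and a gene was counted as changed at an adjusted p under 0.05. The means of the listed genes over all arrays ran from 5.75 to 10.92, against a median of 3.64 over all values of all probe sets. The lowest value of any of them on any array was 4.85. Among all genes read in the same way, their means ranked from the 57.6th percentile, that of Mx2, with a median at the 88.5th. The SD within groups ran from 0.09 to 0.37 with a median of 0.19.

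As to the arrays as a whole, 6 leukocyte markers averaged 10.68 to 11.38 on every array, which matches the label of the cells. The Nrp1 probe set was lower in Nrp1-deleted hosts without overlap in 6 of 6 settings. Such separation below the controls held for 15.8% to 32.6% of all genes, depending on the setting. Its difference was -0.84 ± 0.09 over the 6 settings (limma adjusted p = 1.6e-07), -1.13 ± 0.12 over B16 and -0.54 ± 0.12 over MC38. Each B16 time passed the threshold alone. No single MC38 day did (adjusted p = 0.12 at day 6, 0.31 at day 12 and 0.10 at day 18). Whether the probe set lies inside the deleted exon is not known here. The deletion is directed to Foxp3-expressing cells, and which cells of the sorted material kept the gene was not measured. Macrophage markers, given below, were also lower at B16 days 12 and 18. The part of the cell types present in the Nrp1 difference was not tested. By the distribution of their values, which no label explains, 3 sets of arrays could be told apart: B16 day 18 with MC38 day 12, MC38 days 6 and 18, and early with day 12 B16. Every genotype comparison and the time comparisons below lie inside a set, while differences between genotype effects of different sets cross them. The melanocyte markers averaged 3.49 to 3.78 on MC38 arrays and 4.996 to 9.91 on B16 arrays, where transcripts of pigment cells were therefore part of the sorted material.

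No common direction was seen over the study. Across the 6 settings of tumour and day, 12 of the 31 genes differed by genotype, 7 higher and 5 lower in Nrp1-deleted hosts, against 28.8% of all genes (11% higher, 17.9% lower). The median of the 31 was 0.03 and that of all genes -0.03. The members split by name: Oas2, Oasl1, Oasl2, Mx1 and Irf7 were lower, and Dtx3l, Herc6, Irf9, Parp14, Parp9, Samd9l and Trim30a were higher. The highest mean difference was that of Herc6 (0.28 ± 0.07, adjusted p = 0.0047). The call of Irf7 (-0.19 ± 0.07, adjusted p = 0.047) was lost under 4 of 7 other settings and without any 1 of 19 arrays. Leaving out the B16 day 18 arrays ended the calls of Herc6, Irf9, Parp14 and Parp9. That of Parp14 was also lost with its probe sets averaged.

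In B16 tumours the direction differed between days. Over the 3 B16 days together, 5 genes were higher and 4 lower (22.6% of all genes passed, 10.3% higher and 12.3% lower), Rsad2 being the fourth beside the OAS genes that were lower. At the early time 0 of 31 genes passed by limma (0.445% of all genes did, and 2 of the 31 had an unadjusted p under 0.05). At day 12, 10 genes were lower and 1 was higher (9.17% of all genes were lower, 7.8% higher). At day 18, 12 genes were higher and 1 was lower (7.54% higher and 11.3% lower among all genes). The 31 genes had a median of -0.21 at day 12 and of 0.33 at day 18, with all genes at 0.04 and 0.00. Without Nrp1-deleted replicate 1 of day 12 the 11 calls of that day became 6, without control replicate 1 they became 7, and without control replicate 3 of day 18 the 13 calls of that day became 8. Only Oas2 was lower at both days, and only Ifit2 was lower at day 12 and higher at day 18.

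**Figure D1:**
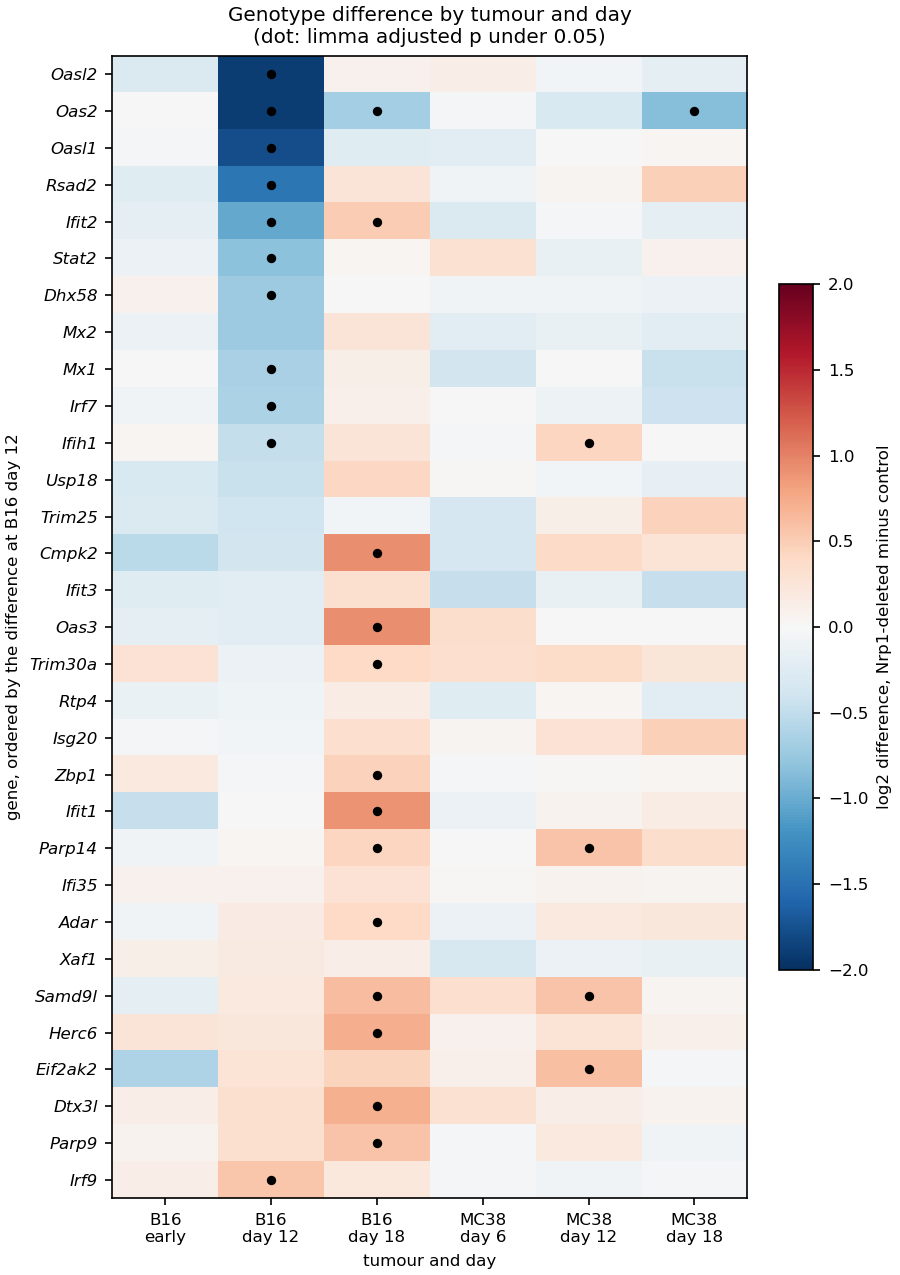
Genotype difference (log2, Nrp1-deleted minus control, colour scale from -2 to 2) of the 31 genes in each of the 6 settings of tumour and day, with genes ordered by the difference at B16 day 12 and dots marking a limma adjusted p under 0.05. B16 day 12 holds 10 dots on blue cells and B16 day 18 holds 12 on red ones, while early B16 and MC38 day 6 hold none.

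Markers of cell types moved in the same comparisons, and in such bulk samples fewer cells of a type and less RNA per cell cannot be told apart. At B16 day 12, 9 of 9 macrophage markers were lower (median -3.31), their mean level being 9.61 and 9.64 in the controls and 5.72 and 6.31 in Nrp1-deleted hosts. At that day 6 of 6 conventional dendritic cell markers were lower (median -2.77), as were 3 of 5 monocyte markers (median -4.08), 3 of 8 plasmacytoid dendritic cell markers (median -0.74) and 8 of 10 melanocyte markers (median -2.01), and 2 of 10 T cell markers were higher (median 0.92). Of 5 neutrophil markers 2 were lower (median -2.19), and of 5 NK cell markers none passed (median 0.84). Between the early time and day 12 the macrophage markers were higher in controls, 9 of 9 (median 1.99), and in Nrp1-deleted hosts 3 were lower (median -0.55). Over the same interval 5 of 5 monocyte markers (median 2.81), 4 of 6 conventional dendritic cell markers (median 1.35), 2 of 8 plasmacytoid dendritic cell markers (median 0.26) and 1 of 5 neutrophil markers, Csf3r (2.30 ± 0.21), were higher in controls, and 2 of 5 NK cell markers were lower (median -0.16). In Nrp1-deleted hosts 1 of 5 monocyte markers was higher (median 0.11), 0 of 6 conventional dendritic cell markers passed (median -0.44) and 8 of 10 melanocyte markers were lower (median -1.85). Of the 5 NK cell markers only Ncr1 passed in these hosts, as higher (1.41 ± 0.38, limma adjusted p = 0.011). The mean level of the interferon list was 9.11 and 9.21 in the day 12 controls and 8.67 and 8.90 in the Nrp1-deleted hosts of that day. The part of these cells in the differences of the interferon genes was not tested.

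At B16 day 18 the macrophage markers and the interferon list went opposite ways. Of the macrophage markers 9 of 9 were lower again (median -1.93), with arrays at 8.74 to 9.69 in controls and 7.33 to 7.78 in Nrp1-deleted hosts, while 12 interferon genes were higher. In the same arrays 10 of 10 melanocyte markers were lower (median -3.18), with mean levels of 9.37 to 9.91 in controls and 5.70 to 6.69 in Nrp1-deleted hosts. The leukocyte markers were higher, 5 of 6 with a median of 0.34, beside a median of 0.33 for the interferon list, and their mean level was 10.68 to 10.81 against 11.03 to 11.05. NK cell markers were also higher, 4 of 5 with a median of 1.01, and their mean level was 8.33 to 8.62 in controls and 8.86 to 9.73 in Nrp1-deleted hosts. Of 10 T cell markers 2 were higher (median 0.67). Of 6 conventional dendritic cell markers 6 were lower (median -1.64), and of 5 neutrophil markers 2 were lower, S100a8 (-2.89 ± 0.76) and S100a9 (-3.24 ± 0.71), and 1 was higher. No monocyte marker passed, the smallest p being that of Ccr2 (0.30 ± 0.16, limma adjusted p = 0.22). The part of these cells, of melanoma RNA and of the share of leukocyte RNA in the differences of the interferon genes was not tested. In MC38 no macrophage or melanocyte marker passed over the 3 days, 9 of 10 T cell markers were higher (median 1.15) and 5 of 5 NK cell markers were higher (median 1.17). There the monocyte marker Plac8 was higher (0.78 ± 0.11, limma adjusted p = 1.6e-05). The neutrophil marker Mmp9 was lower (-0.74 ± 0.22, limma adjusted p = 0.019), and no other marker of these lists passed.

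**Figure D2:**
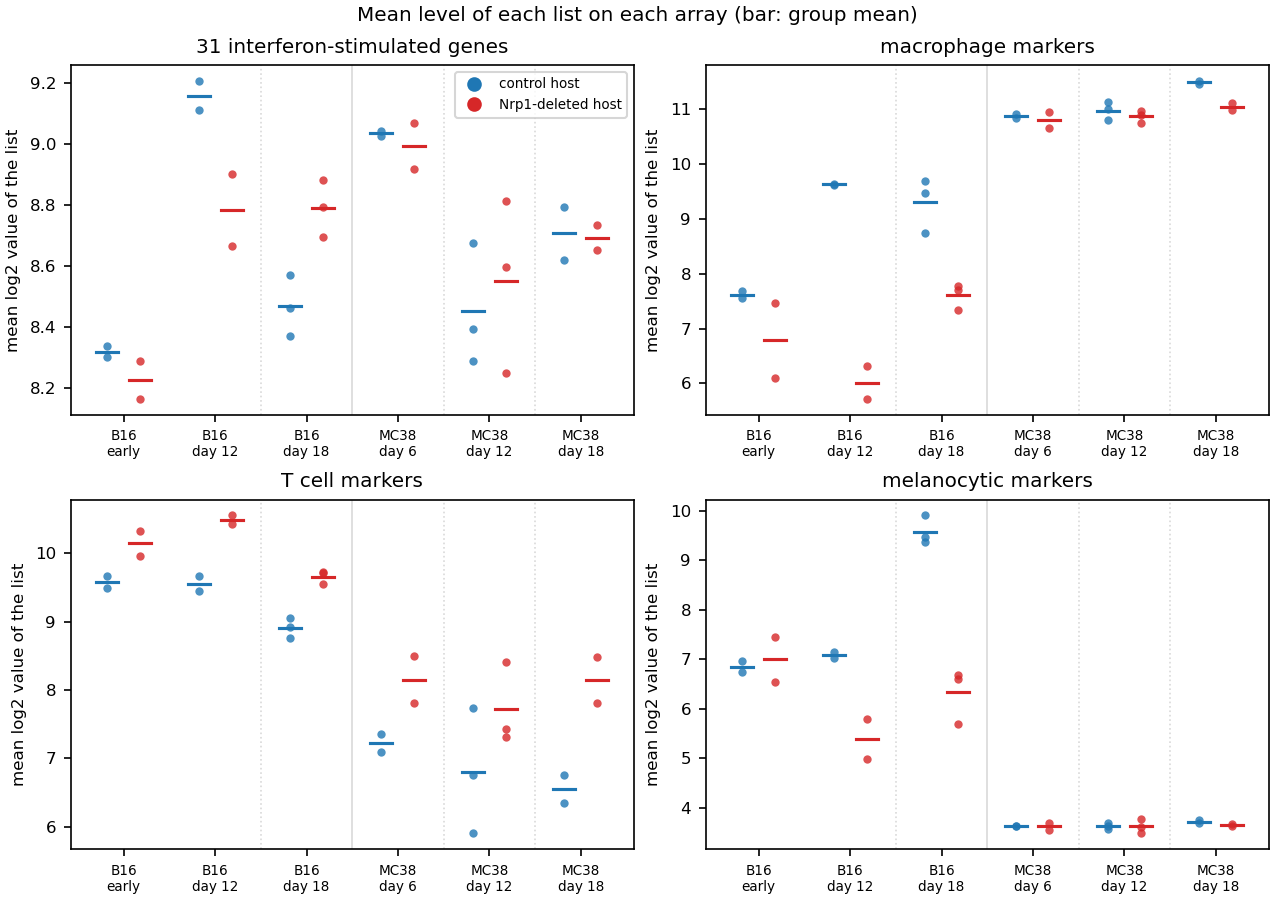
Mean log2 value on each array of the 31 interferon-stimulated genes and of the macrophage, T cell and melanocyte marker lists, by tumour and day, with control hosts in blue, Nrp1-deleted hosts in red and bars at the group means; the axes differ between panels. At B16 day 12 the macrophage mean is 9.61 and 9.64 in controls and 5.72 and 6.31 in Nrp1-deleted hosts, and at B16 day 18 the melanocyte mean is 9.37 to 9.91 in controls and 5.70 to 6.69 in Nrp1-deleted hosts.

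The OAS family includes makers of the oligoadenylates that activate RNase L, such as Oas2 and Oas3, and the OAS-like genes Oasl1 and Oasl2. It held the lowest differences of the B16 day 12 comparison, with 3 of its 4 measured members lower. Oas2 read 7.52 and 7.52 in the controls of that day and 5.41 and 5.83 in Nrp1-deleted hosts, a difference of -1.90 ± 0.18 or 3.72-fold (limma adjusted p = 2.6e-08). Oasl2 read 8.47 and 8.44 against 6.29 and 6.82, a difference of -1.90 ± 0.19 (adjusted p = 1.0e-07). Oasl1 read 9.04 and 8.72 against 6.81 and 7.39, a difference of -1.78 ± 0.32 (adjusted p = 0.00024). In all of these genes the arrays of the genotypes did not overlap, which was also true in this direction of 24.1% of all genes. Such separation was common in groups of this size. Nrp1-deleted arrays lay above the controls in 21.2%, 31.6% and 13.6% of all genes at the early time, day 12 and day 18 of B16, and in 5, 7 and 16 of the 31 members. They lay below in 22.9%, 24.1% and 15.8% of all genes and in 8, 14 and 1 members. At days 6, 12 and 18 of MC38 they lay above in 16.2%, 8.38% and 19.7% of all genes and in 6, 5 and 9 members, and below in 25.9%, 17.1% and 32.6% and in 9, 1 and 7 members.

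At the early time these genes did not pass and their arrays overlapped between genotypes. Oas2 read 5.60 and 5.57 in controls and 5.53 and 5.62 in Nrp1-deleted hosts. Oasl2 read 6.65 and 6.51 against 6.56 and 6.01. Oasl1 read 8.0 and 7.96 against 8.39 and 7.48. For Oas2 and Oasl2 the early and the day 12 Nrp1-deleted arrays overlapped, and the day 12 controls stood above them all. The difference of the genotype effects, day 12 minus early, was -1.88 ± 0.25 for Oas2 (adjusted p = 4.6e-05), -1.60 ± 0.27 for Oasl2 (adjusted p = 0.0005) and -1.73 ± 0.45 for Oasl1 (adjusted p = 0.019). The highest was that of Eif2ak2, which did not pass (0.89 ± 0.31, adjusted p = 0.096). The call of Oasl1 in that difference was lost in 5 of 8 fits that leave out 1 array.

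At B16 day 18 Oas2 read 7.14, 7.66 and 7.31 in controls and 6.90, 6.41 and 6.79 in Nrp1-deleted hosts, a difference of -0.67 ± 0.14 (adjusted p = 0.0015). Oasl2 there read 7.89, 8.07 and 8.02 against 8.32, 7.84 and 8.06, which overlap. Oasl1 read 8.20, 8.0 and 8.51 against 8.06, 7.49 and 8.43, which also overlap. Oas3 was alone in the family in being higher, with 6.51, 6.29 and 5.85 against 7.19, 6.89 and 7.35, a difference of 0.92 ± 0.23 (adjusted p = 0.005). Over the 3 B16 days together Oas2 was lower by -0.86 ± 0.10 (adjusted p = 3.2e-07), Oasl2 by -0.70 ± 0.11 (adjusted p = 1.9e-05) and Oasl1 by -0.69 ± 0.17 (adjusted p = 0.0045).

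Oas2 was also the member with the clearest fall in MC38, where it was -0.40 ± 0.10 over the 3 days (adjusted p = 0.0045). At day 18 it read 7.75 and 7.85 in controls and 6.87 and 7.04 in Nrp1-deleted hosts, a difference of -0.85 ± 0.18 (adjusted p = 0.0057), which no longer passed without control replicate 2 or without Nrp1-deleted replicate 1. At day 12 it read 7.28, 7.37 and 7.30 against 7.0, 6.82 and 7.22, without overlap (17.1% of all genes were below in this way) but short of the threshold (-0.30 ± 0.14, adjusted p = 0.21). At day 6 it read 7.83 and 7.69 against 7.64 and 7.79, which overlap. Oasl2 did not pass in MC38: it read 8.66 and 8.69 in controls and 8.85 and 8.76 in Nrp1-deleted hosts at day 6. Its day 12 arrays read 8.70, 8.83 and 8.40 against 8.76, 8.32 and 8.69. Its day 18 arrays read 8.47 and 8.83 against 8.46 and 8.49. The genotypes overlapped at days 12 and 18, and at day 6 the Nrp1-deleted arrays lay above. Over all 6 settings Oas2 had the lowest difference of the list, -0.63 ± 0.07 (adjusted p = 2.6e-07), and that of Oasl2 was -0.37 ± 0.07 (adjusted p = 0.00046).

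**Figure D3:**
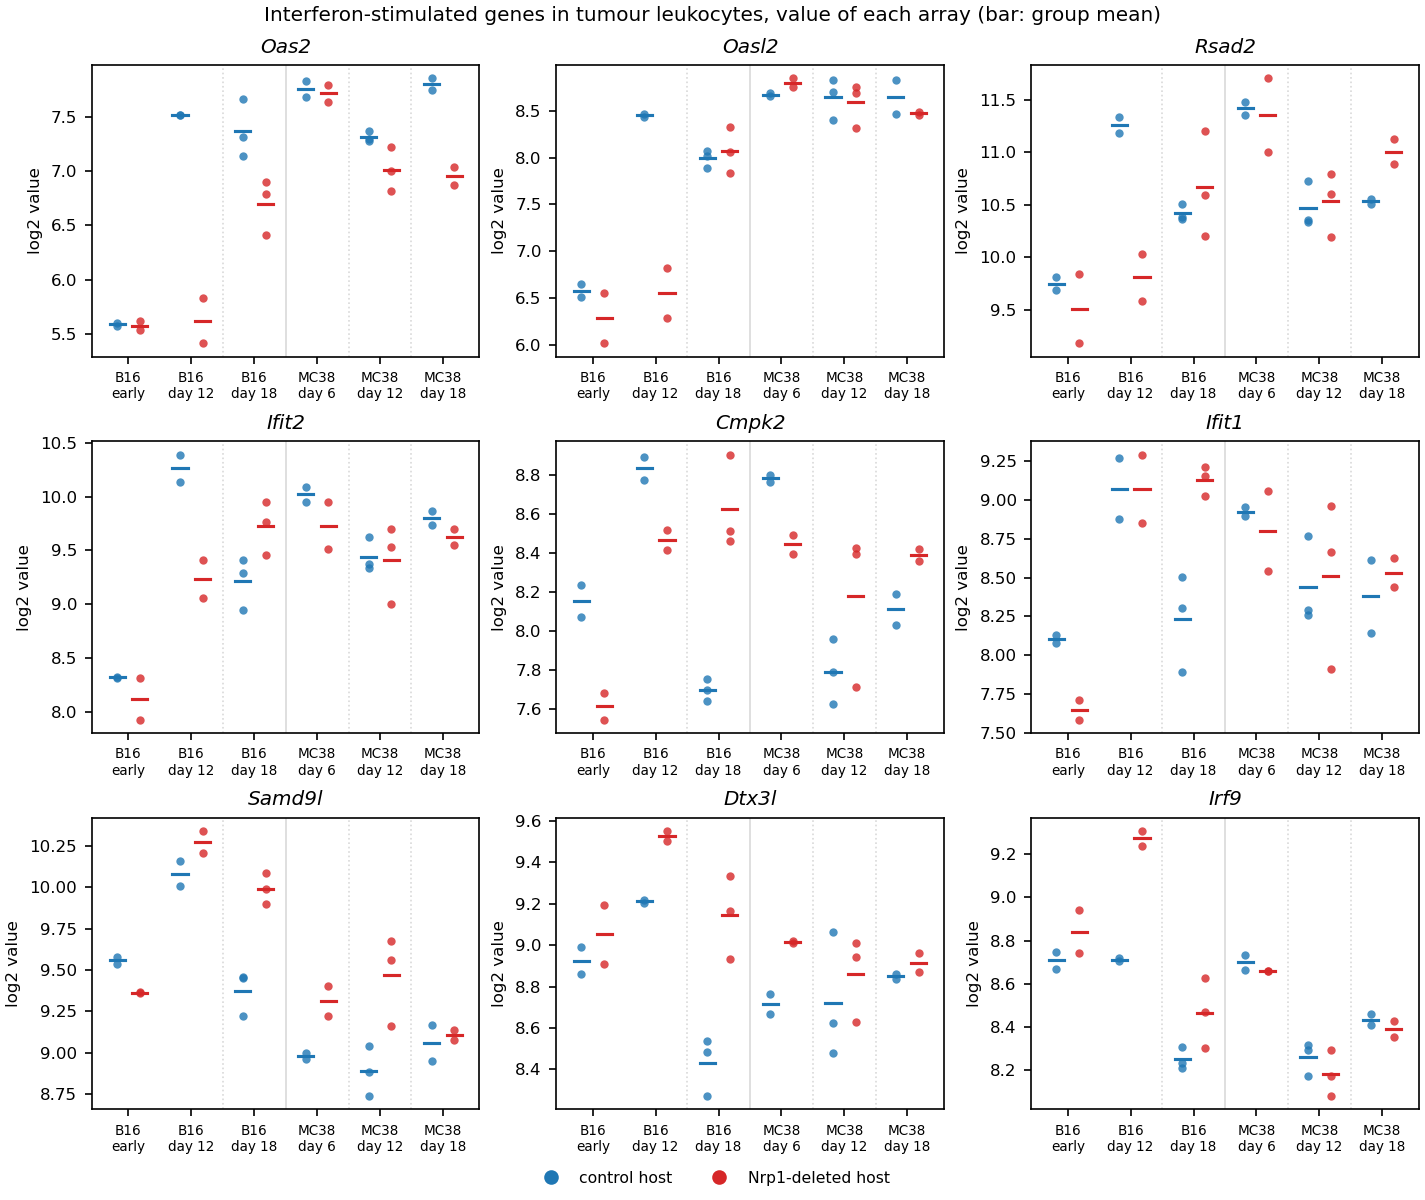
Log2 value of each array for 9 of the genes, by tumour and day, with control hosts in blue, Nrp1-deleted hosts in red and bars at the group means. The 2 control arrays of B16 day 12 lie at 7.52 for Oas2 while the Nrp1-deleted arrays of that day lie at 5.41 and 5.83, near the early arrays; Cmpk2, Ifit1, Samd9l and Dtx3l have their Nrp1-deleted arrays above the controls at B16 day 18.

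The direct antiviral effectors divided between the days. Rsad2 encodes viperin, which makes a nucleotide that ends viral RNA chains. At B16 day 12 it read 11.34 and 11.19 in controls and 9.58 and 10.03 in Nrp1-deleted hosts, a difference of -1.45 ± 0.26 (adjusted p = 0.00019), and its other probe sets had differences of the same sign over B16. At day 18 it read 10.36, 10.38 and 10.51 against 10.59, 10.21 and 11.21, which overlap. Mx1, a GTPase that traps viral nucleocapsids, read 9.499 and 9.39 against 8.69 and 8.92 at day 12 (-0.64 ± 0.18, adjusted p = 0.011); the call was lost without control replicate 1 or without Nrp1-deleted replicate 1. Mx2 had values of 6.22 and 5.61 against 4.97 and 5.42 that day and did not pass (-0.72 ± 0.27, adjusted p = 0.068).

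Cmpk2, a mitochondrial nucleotide kinase whose gene neighbours Rsad2, had the highest difference of the B16 day 18 comparison. It read 7.69, 7.75 and 7.64 in controls and 8.46, 8.51 and 8.90 in Nrp1-deleted hosts, a difference of 0.93 ± 0.14 or 1.91-fold (adjusted p = 3.9e-05). At day 12 its values were 8.89 and 8.78 against 8.42 and 8.52 (-0.37 ± 0.17, adjusted p = 0.17). At the early time they were 8.07 and 8.24 against 7.68 and 7.55 (-0.54 ± 0.17, adjusted p = 0.22), the smallest p of the list at that time. Its arrays thus lay below the controls at the first times and above them at day 18, without overlap at any of the 3, and the difference of effects, day 18 minus early, was 1.47 ± 0.22 (adjusted p = 0.00017).

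Samd9l, an antiviral factor that limits translation, was higher at B16 day 18, with 9.45, 9.46 and 9.22 in controls and 10.09, 9.99 and 9.90 in Nrp1-deleted hosts (0.62 ± 0.11, adjusted p = 0.00019). At the early time it read 9.58 and 9.54 against 9.37 and 9.36. Its day 12 levels were 10.16 and 10.01 in controls and 10.21 and 10.34 in Nrp1-deleted hosts. The difference of effects, day 18 minus early, was 0.81 ± 0.17 (adjusted p = 0.0044). It was also the firmest rise in MC38. At MC38 day 12 it read 8.89, 9.04 and 8.74 against 9.68, 9.16 and 9.56 (0.58 ± 0.11, adjusted p = 0.0014), and over the 3 MC38 days its difference was 0.32 ± 0.07 (adjusted p = 0.0025). At MC38 day 6 it read 8.997 and 8.96 against 9.40 and 9.22, which did not pass (0.33 ± 0.13, adjusted p = 0.19), and at day 18 it read 8.95 and 9.17 against 9.08 and 9.13. Over all 6 settings it was higher by 0.26 ± 0.05 (adjusted p = 0.00029).

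Eif2ak2, the kinase PKR that stops translation on double-stranded RNA, had the lowest difference of the early B16 comparison, with 6.96 and 7.13 against 6.67 and 6.19 (-0.62 ± 0.22, adjusted p = 0.29). At MC38 day 12 it was higher, with 6.56, 6.48 and 6.28 against 7.09, 6.87 and 7.17 (0.60 ± 0.18, adjusted p = 0.037), a call that was lost in 5 of 6 fits without 1 array. Adar, which edits adenosine in double-stranded RNA, read 7.29, 7.15 and 7.12 against 7.67, 7.61 and 7.47 at B16 day 18 (0.40 ± 0.12, adjusted p = 0.022), and that call was lost in 4 of 6 such fits. Isg20, an RNA exonuclease, passed in no genotype comparison.

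The IFIT proteins bind viral RNA and block its translation. Ifit2 changed direction between the B16 days. At day 12 it read 10.39 and 10.14 in controls and 9.06 and 9.41 in Nrp1-deleted hosts (-1.03 ± 0.20, adjusted p = 0.00062). At day 18 it read 9.29, 9.41 and 8.95 against 9.77, 9.46 and 9.95 (0.51 ± 0.16, adjusted p = 0.031). That call held in 5 of 7 other settings and was lost without any 1 of 3 arrays. The difference of its effects between these days was 1.54 ± 0.26 (adjusted p = 0.00043). This contrast crosses sets of arrays and was added after the opposite directions had been seen.

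Ifit1 was higher at B16 day 18, with 8.505, 8.31 and 7.89 against 9.21, 9.03 and 9.16 (0.90 ± 0.21, adjusted p = 0.0035). At day 12 it read 9.27 and 8.88 against 8.85 and 9.29, which overlap and have nearly the same mean. At the early time it read 8.08 and 8.13 against 7.58 and 7.71, and the difference of effects, day 18 minus early, was 1.35 ± 0.33 (adjusted p = 0.017), a call lost without either early control or without early Nrp1-deleted replicate 1. Ifit3 passed only over the 3 MC38 days (-0.36 ± 0.13, adjusted p = 0.0495), and that call held in 2 of 7 other settings. Its day 6 arrays read 9.96 and 9.75 in controls and 9.23 and 9.55 in Nrp1-deleted hosts, the lowest difference of the list at that day (-0.46 ± 0.23, adjusted p = 0.35). The day 18 ones read 9.75 and 9.94, and 9.29 and 9.48 after deletion. Those of day 12 were 9.12, 9.49 and 9.28 beside 9.20, 8.60 and 9.64, and they overlapped, which those of the other days did not.

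Of the genes that attach or remove the ubiquitin-like ISG15, Herc6, the ligase used for this in mice, was higher at B16 day 18. It read 7.08, 7.42 and 6.89 against 7.90, 7.84 and 7.83 (0.72 ± 0.16, adjusted p = 0.0016), and over the 3 B16 days its difference was 0.40 ± 0.10, the highest of the list there (adjusted p = 0.0055). Without the day 18 arrays this B16 call was lost. Its early B16 arrays were 7.48 and 7.37 in controls and 7.53 and 7.84 in Nrp1-deleted hosts. The B16 arrays of day 12 were 7.96 and 8.01, and 8.30 and 8.11. In both the Nrp1-deleted arrays were the higher ones. In MC38 Herc6 read 7.59 and 7.68 in controls and 7.64 and 7.81 in Nrp1-deleted hosts at day 6. On day 12 it read 6.77, 7.35 and 6.74 in controls, and 7.27, 6.92 and 7.51 in Nrp1-deleted hosts. On day 18 it read 7.10 and 7.22, and 7.24 and 7.30. The genotypes overlapped on the first of these days and on day 12. Usp18, which strips ISG15 from proteins and shields Ifnar2 from further signal, and Trim25, which modifies the sensor RIG-I, passed in no genotype comparison.

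The transcription factors went separate ways at B16 day 12. Irf9, the DNA-binding partner in ISGF3, was the only member higher, with 8.72 and 8.71 in controls and 9.31 and 9.24 in Nrp1-deleted hosts (0.56 ± 0.10, adjusted p = 0.00028). Irf7, which drives interferon-alpha genes, read 9.57 and 9.46 against 8.75 and 9.03 (-0.63 ± 0.18, adjusted p = 0.017), and the call was lost without any 1 of 3 arrays. Stat2 read 7.84 and 7.62 against 6.88 and 6.94 (-0.82 ± 0.26, adjusted p = 0.029), and its call was lost without any 1 of the 4 arrays. Over the 3 B16 days Irf9 was higher by 0.30 ± 0.06 (adjusted p = 0.00022), with early arrays of 8.67 and 8.75 in controls and 8.74 and 8.94 in Nrp1-deleted hosts. Its B16 arrays of day 18 were 8.31, 8.24 and 8.21 in controls and 8.63, 8.47 and 8.30 in Nrp1-deleted hosts. In MC38 Irf9 did not pass. At day 6 its control arrays were 8.73 and 8.67 and its Nrp1-deleted arrays 8.66 and 8.66, which lay below without overlap, as 25.9% of all genes did. Its arrays of day 18 (8.41 and 8.46 in controls, 8.36 and 8.43 in Nrp1-deleted hosts) and of day 12 (8.29, 8.32 and 8.18, and 8.17, 8.08 and 8.30) overlapped.

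Among the nucleic acid sensors, Ifih1 (MDA5, which senses long double-stranded RNA) was lower at B16 day 12 and higher at MC38 day 12. In B16 it read 8.95 and 8.94 in controls and 8.43 and 8.51 in Nrp1-deleted hosts (-0.48 ± 0.12, adjusted p = 0.0069), a call lost without control replicate 1 or Nrp1-deleted replicate 1. In MC38 it read 8.34, 8.56 and 8.25 against 8.88, 8.63 and 8.92 (0.43 ± 0.10, adjusted p = 0.00885), a call lost without replicate 3 of either genotype. Dhx58, the LGP2 partner of these sensors, read 9.07 and 9.01 against 8.09 and 8.54 at B16 day 12 (-0.72 ± 0.15, adjusted p = 0.0011), and lost the call without Nrp1-deleted replicate 1. With its 3 probe sets averaged, Dhx58 did not pass at that day. Zbp1, which senses left-handed nucleic acid, read 9.60, 9.94 and 9.53 against 10.20, 10.18 and 10.06 at B16 day 18 (0.46 ± 0.13, adjusted p = 0.011), a call lost without control replicate 3.

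Dtx3l, Parp9 and Parp14 rose together at B16 day 18. Dtx3l is a ubiquitin ligase that works as a pair with Parp9, and Parp14 adds ADP-ribose to proteins. Dtx3l read 8.49, 8.53 and 8.27 in controls and 9.33, 9.17 and 8.93 in Nrp1-deleted hosts (0.71 ± 0.13, adjusted p = 0.00023). Parp9 read 9.10, 8.97 and 8.78 against 9.64, 9.51 and 9.41 (0.57 ± 0.11, adjusted p = 0.00038). None of the arrays of these genes overlapped between genotypes at that day, which held in this direction for 13.6% of all genes. At day 12 Dtx3l read 9.22 and 9.20 in controls and 9.55 and 9.502 in Nrp1-deleted hosts, and Parp9 9.53 and 9.61 beside 9.83 and 9.94. The Nrp1-deleted arrays of both lay above the controls, as 31.6% of all genes and 7 of the 31 members did that day, and neither passed (0.32 for each, adjusted p = 0.20 and 0.11). In early tumours Dtx3l read 8.99 and 8.86 in controls, 8.91 and 9.19 in Nrp1-deleted hosts, and Parp9 9.22 and 9.09, then 9.20 and 9.25. Here the genotypes overlapped.

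Parp14 read 8.85, 8.92 and 8.76 against 9.38, 9.30 and 9.16 at B16 day 18 (0.44 ± 0.13, adjusted p = 0.016), a call lost without any 1 of 3 arrays. With its 2 probe sets averaged, Parp14 did not pass at that day. At MC38 day 12 it read 8.53, 8.79 and 8.14 against 9.09, 8.80 and 9.26 (0.56 ± 0.13, adjusted p = 0.0066), which was lost without control replicate 3. At MC38 day 6 it read 9.55 and 9.53 in controls and 9.42 and 9.68 in Nrp1-deleted hosts, and on day 18 its levels were 8.88 and 8.97, then 9.23 and 9.32. The genotypes overlapped at day 6 and were apart on day 18. In MC38 Dtx3l read 8.67 and 8.76 (controls), then 9.02 and 9.01 (Nrp1-deleted hosts) at day 6. Its day 12 levels were 8.62, 9.06 and 8.48, then 8.94, 8.63 and 9.01. Its day 18 levels were 8.84 and 8.86, then 8.87 and 8.96. The genotypes overlapped only on day 12. Over the 3 B16 days Dtx3l was higher by 0.39 ± 0.08 (adjusted p = 0.0013) and Parp9 by 0.32 ± 0.07 (adjusted p = 0.0015), and both calls were lost without the day 18 arrays. Over the 3 MC38 days Parp14 was higher by 0.31 ± 0.08 (adjusted p = 0.011), and over all 6 settings Dtx3l was higher by 0.28 ± 0.06 (adjusted p = 0.0009).

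Of the remaining members, Trim30a, a tripartite motif protein that restrains NF-κB signalling, was higher over all 6 settings (0.25 ± 0.05, adjusted p = 0.00086) and over the MC38 days (0.32 ± 0.08, adjusted p = 0.0046). In MC38 it read 10.92 and 10.94 in controls and 11.41 and 11.13 in Nrp1-deleted hosts at day 6. Its day 12 levels were 10.34, 10.66 and 10.16, then 10.76, 10.54 and 10.95. Its day 18 levels were 10.64 and 10.86, then 10.97 and 11.03. The genotypes overlapped at day 12 and were apart at days 6 and 18, and no single MC38 day passed. In early B16 tumours it had the highest difference of the list (0.29 ± 0.14, adjusted p = 0.55), with 10.69 and 10.71 in controls and 10.91 and 11.06 in Nrp1-deleted hosts. At B16 day 12 it read 11.64 and 11.73, then 11.50 and 11.64. On B16 day 18 it rose, from 10.54, 10.78 and 10.35 in controls to 10.99, 10.92 and 10.92 in Nrp1-deleted hosts (0.39 ± 0.11, adjusted p = 0.018), a call lost without any 1 of 3 arrays. Xaf1, Ifi35 and Rtp4 passed in no genotype comparison.

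In MC38 the list moved little. Over the 3 days 5 of 31 genes passed, 3 higher and 2 lower (19.3% of all genes passed, 6.97% higher and 12.3% lower), with a median of 0.03. At day 6, 0 passed by limma (2.97% of all genes did, 0.983% as higher, and Samd9l and Trim30a had an unadjusted p under 0.05), the highest difference being that of Oas3 (0.35 ± 0.28, adjusted p = 0.62); without Nrp1-deleted replicate 2 1 gene passed. At day 12, Eif2ak2, Ifih1, Parp14 and Samd9l were higher and none was lower (8.59% of all genes passed, 3.71% higher and 4.87% lower), and the 4 calls became 1 without control replicate 3 and 2 without Nrp1-deleted replicate 3. At day 18, Oas2 was lower (5.36% of all genes passed, 3.12% higher and 2.24% lower), and the highest difference was that of Isg20 (0.48 ± 0.22, adjusted p = 0.26).

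The genotype effect itself was compared between tumours and times. In B16 minus MC38, 4 genes passed (14% of all genes did, 6.75% higher and 7.22% lower): Irf9 was higher by 0.36 ± 0.08 (adjusted p = 0.003), and Oasl2 (-0.67 ± 0.15, adjusted p = 0.0032), Oas2 (-0.46 ± 0.14, adjusted p = 0.022) and Rsad2 (-0.64 ± 0.20, adjusted p = 0.032) were lower. The call of Oas2 was lost without B16 day 12 Nrp1-deleted replicate 1, where the 4 calls became 2, and that of Rsad2 without any 1 of 9 arrays. In B16 day 12 minus early, 5 genes were lower and 0 higher (6.29% of all genes passed, 4.41% lower), and the 5 became 3 without control replicate 2 of either time and 2 without any 1 of 4 arrays, namely control replicate 1 or Nrp1-deleted replicate 1 of either time. In day 18 minus early, Cmpk2, Eif2ak2, Ifit1 and Samd9l were higher (4.85% of all genes passed, 1.36% higher), and without early control replicate 1 the 4 became 2; the lowest was that of Oas2 (-0.66 ± 0.23, adjusted p = 0.10).

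The contrast between the later B16 days was added after their opposite directions had been seen. In day 18 minus day 12, 9 of 31 genes were higher and 0 lower (6.07% of all genes passed, 3.22% higher). The smallest p belonged to Oasl2 (1.98 ± 0.25, adjusted p = 2.6e-05), Ifit2 (1.54 ± 0.26, adjusted p = 0.00043) and Cmpk2 (1.30 ± 0.22, adjusted p = 0.00054), and the lowest difference was that of Irf9 (-0.35 ± 0.13, adjusted p = 0.15). These days lie in different sets of arrays, and all such differences within B16 share arrays with each other. In MC38 no member passed by limma in day 12 minus day 6 (0.00585% of all genes did, 3 members at an unadjusted p under 0.05, the smallest p being that of Cmpk2 with 0.72 ± 0.22 and adjusted p = 0.44, then Ifih1 with 0.46 ± 0.16 and adjusted p = 0.47); the lowest was that of Stat2, -0.45 ± 0.33. Nor did any in day 18 minus day 6 (0.0819% of all genes did, 0.0643% higher, 3 members at an unadjusted p under 0.05, led by Oas2 with -0.81 ± 0.25 and adjusted p = 0.30, then Trim25 with 0.80 ± 0.25 and adjusted p = 0.31), and without day 6 Nrp1-deleted replicate 2 there was 1 call.

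Between the early time and day 12, the list rose in B16 tumours of control hosts: 22 of 31 genes were higher and 0 lower at day 12 (9.14% of all genes were higher, 6.92% lower), with a median of 0.75 against 0.00 for all genes. In 29 of 31 genes both day 12 controls lay above both early ones, as they did for 28.7% of all genes. The day 12 controls are also those of the genotype comparison of that day. Usp18 had the highest difference, with 7.39 and 7.46 early and 9.45 and 9.39 at day 12 (1.999 ± 0.22, adjusted p = 9.8e-07). Ifit2 went from 8.32 and 8.31 to 10.39 and 10.14 (1.94 ± 0.20, adjusted p = 4.9e-07). Oas2, with the values given above, was higher by 1.93 ± 0.18 (adjusted p = 1.1e-07) and Oasl2 by 1.88 ± 0.19 (adjusted p = 4.6e-07). Isg20 alone had a negative difference (-0.05 ± 0.22). Leaving out 1 array gave 12 to 17 calls, all higher, with 12 without day 12 control replicate 1 and 14 without early control replicate 2.

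In Nrp1-deleted hosts 17 genes were higher and 0 lower over the same interval (9.14% of all genes were higher), with a median of 0.49. Usp18 again led, from 7.47 and 6.77 to 8.75 and 9.20 (1.86 ± 0.22, adjusted p = 4.9e-06). Samd9l went from 9.37 and 9.36 to 10.21 and 10.34 (0.91 ± 0.13, adjusted p = 4.4e-05), and Ifit2 from 8.31 and 7.93 to 9.06 and 9.41 (1.11 ± 0.20, adjusted p = 0.00041). The lowest difference was that of Oasl1, from 8.39 and 7.48 to 6.81 and 7.39 (-0.83 ± 0.32, adjusted p = 0.079). These comparisons share no array but come from the same limma fit, which takes the spread from all arrays together. The share of all genes that passed in both was not counted, so whether the overlap is particular to the list was not tested. Of the members, 13 passed in both, which is 13 of the 22 in controls and 13 of the 17 in Nrp1-deleted hosts. The others of the control list were Dhx58, Herc6, Irf7, Mx2, Oas2, Oasl2, Rsad2, Trim25 and Zbp1. The others of the Nrp1-deleted list were Adar, Dtx3l, Eif2ak2 and Irf9.

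**Figure D4:**
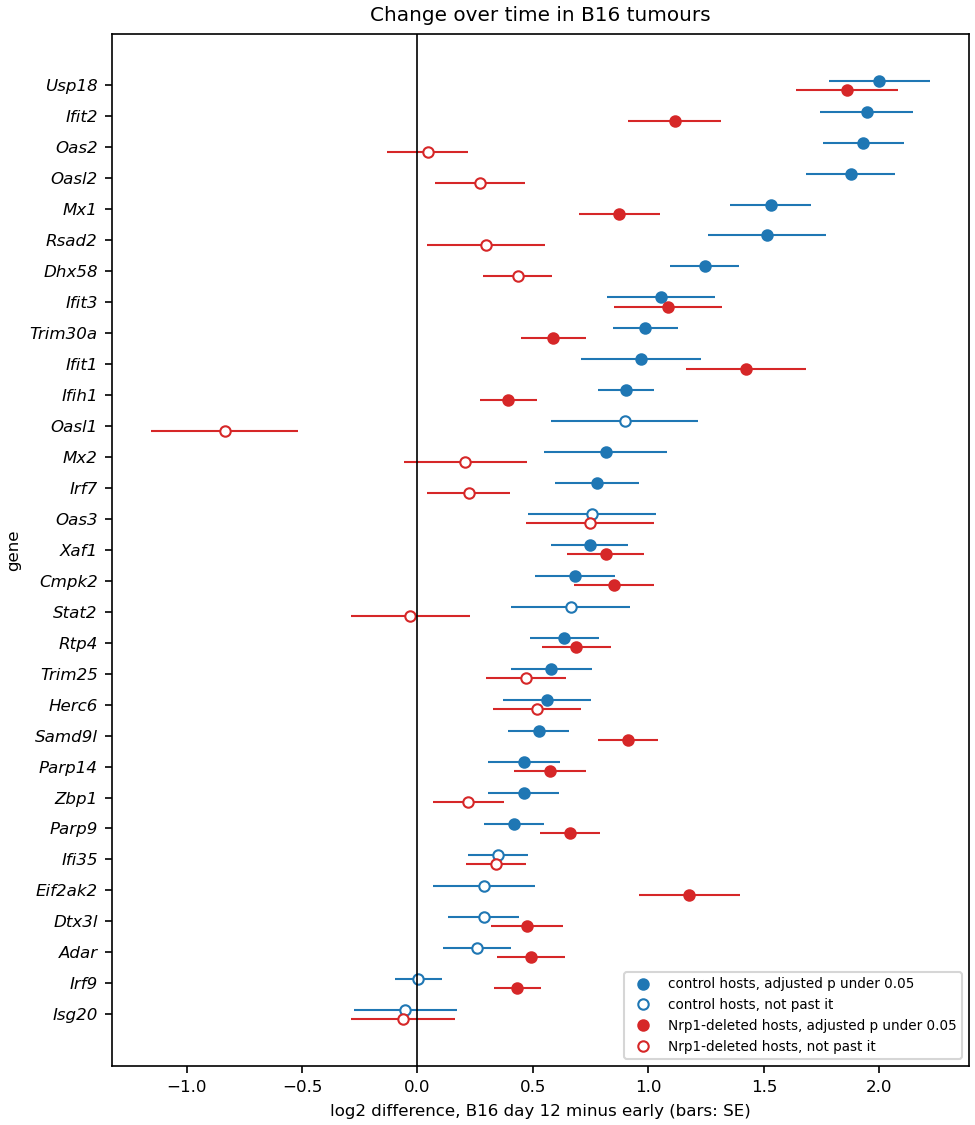
Difference between day 12 and the early time in B16 tumours (log2, horizontal axis) for the 31 genes, with control hosts in blue, Nrp1-deleted hosts in red, bars for the standard error and filled points for a limma adjusted p under 0.05. Usp18 is at 1.999 in controls and 1.86 in Nrp1-deleted hosts, while Oas2 is at 1.93 in controls and 0.04 in Nrp1-deleted hosts.

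In MC38, over another interval, the members that passed went down. Between days 6 and 18, 6 of 31 genes were lower and 0 higher in controls (4.54% of all genes were lower and 4.4% higher), with a median of -0.29. Trim25 went from 10.21 and 10.18 to 9.22 and 9.05 (-1.06 ± 0.17, adjusted p = 0.00032). Isg20 went from 9.51 and 9.46 to 8.38 and 8.62 (-0.98 ± 0.22, adjusted p = 0.006), and Parp14 from 9.55 and 9.53 to 8.88 and 8.97 (-0.61 ± 0.15, adjusted p = 0.013). The call of Parp14 was lost with its probe sets averaged. Cmpk2, Rsad2 and Zbp1 made up the rest. Leaving out any 1 array gave 1 or 2 calls (1 without replicate 1 and 2 without replicate 2 of either day), and the call of Trim25 was kept in each such fit. In Nrp1-deleted hosts only Oas2 passed, from 7.64 and 7.79 to 6.87 and 7.04 (-0.76 ± 0.18, adjusted p = 0.02, 0.749% of all genes lower), and its call was lost without any 1 of 3 arrays, while without day 6 Nrp1-deleted replicate 1 there were 3 calls. The highest differences over this time were 0.13 ± 0.15 for Dtx3l in controls and 0.09 ± 0.15 for Adar in Nrp1-deleted hosts, neither past the threshold. In the MC38 controls, over this interval, 2 of 5 monocyte markers were lower, Plac8 (-1.26 ± 0.19, adjusted p = 0.00017) and Ccr2 (-0.68 ± 0.20, adjusted p = 0.03), as were 2 of 5 neutrophil markers, S100a8 (-3.11 ± 0.93, adjusted p = 0.035) and S100a9 (-3.35 ± 0.87, adjusted p = 0.015), and 2 of 10 T cell markers (median -0.56), while 0 of 9 macrophage markers passed by limma (median 0.57). In Nrp1-deleted hosts 1 of 5 monocyte markers was lower (median -0.45) and 0 of 5 neutrophil markers passed (median -1.34). Their part in the differences of the interferon genes was not tested.

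Among the ligands of the pathway, only Ifnb1 and Ifng passed over the 6 settings. The other 9 ligands measured, from a list of mostly interferon-alpha genes, averaged 2.72 to 3.05, below the median of all values. Ifnb1, interferon-beta, averaged 4.14 and was lower over the MC38 days (-1.16 ± 0.20, adjusted p = 0.00019) and over all 6 settings (-0.73 ± 0.14, adjusted p = 0.00027). Ifng, interferon-gamma, averaged 9.91 and was higher over all 6 settings (0.97 ± 0.16, adjusted p = 4.9e-05) and at B16 day 12 (1.58 ± 0.42, adjusted p = 0.0089). These were 2 of 11 ligands measured, where 28.8% of all genes passed.

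Of 7 receptor and kinase genes, 3 were higher and 2 lower over the 6 settings (11% and 17.9% of all genes). Ifngr2, a chain of the interferon-gamma receptor, was lower by -0.93 ± 0.08 (adjusted p = 1.5e-08), Jak1 was higher by 0.54 ± 0.05 (adjusted p = 2.4e-08) and Ifngr1 by 0.44 ± 0.04 (adjusted p = 1.1e-07). The type I receptor chain Ifnar2 was lower by -0.30 ± 0.04 (adjusted p = 5.4e-06). Of 14 sensors, adaptors and kinases upstream of interferon, 2 were higher and 3 lower over the 6 settings, a share near that of all genes (28.8%), and 1 was higher and 6 were lower at B16 day 12 (7.8% and 9.17% of all genes). At that day Tlr3, the endosomal receptor for double-stranded RNA, was lower by -3.34 ± 0.24 (adjusted p = 2.3e-09), Irf5 by -2.62 ± 0.21 (adjusted p = 4.0e-09) and Tlr7 by -1.28 ± 0.26 (adjusted p = 0.001). Of 8 negative regulators, 4 were higher and 2 lower over the 6 settings (11% and 17.9% of all genes), led by Samhd1 (0.34 ± 0.06, adjusted p = 6.7e-05), Irf2 (0.34 ± 0.06, adjusted p = 0.00014) and Socs3 (-0.39 ± 0.08, adjusted p = 0.00036).

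A second list of 48 interferon-stimulated genes, of which 41 were measured, can be set beside the members. At B16 day 12, 16 were lower and 6 higher (9.17% and 7.8% of all genes), with Ifitm3, which blocks virus entry, at -2.33 ± 0.13 (adjusted p = 1.3e-10), Ifitm2 at -2.81 ± 0.21 (adjusted p = 3.5e-09) and the DNA sensor Ifi204 at -2.66 ± 0.21 (adjusted p = 4.4e-09). At B16 day 18, 13 were higher and 5 lower (7.54% and 11.3% of all genes), with Epsti1 at 0.56 ± 0.09 (adjusted p = 7.4e-05), Ifit1bl1 at 1.37 ± 0.24 (adjusted p = 0.00022) and Ifi27 at -0.53 ± 0.09 (adjusted p = 0.00023). In B16 controls between the early time and day 12, 23 were higher and 0 lower (9.14% and 6.92% of all genes). Of 9 genes mainly induced by interferon-gamma, 3 were lower at B16 day 12 (Ciita at -2.60 ± 0.32, Cxcl9 at -1.23 ± 0.21 and Gbp2 at -0.82 ± 0.16) and 0 higher. At B16 day 18, 4 were higher and 1 lower, with Gbp2 at 1.00 ± 0.13 (adjusted p = 5.6e-06), Cxcl9 at 0.75 ± 0.17 (adjusted p = 0.0026) and Igtp at 0.73 ± 0.18 (adjusted p = 0.0056).

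The promoter windows can be set beside these directions. Of the 10 genes lower at B16 day 12, Ifih1, Rsad2 and Stat2 held the core in the promoter window and Ifit2, Irf7, Oasl1 and Oasl2 had a window without it. Of the 12 genes higher at B16 day 18, Ifit1, Oas3 and Trim30a held it and 6 had a window without it. Of the 22 that rose in B16 controls, 5 held it and 8 had a window without it, and the others had no window in the table. Among all measured members with a window, changed or not, 8 of 22 (36.4%) held it. A difference of the changed genes from that share was not tested.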

How the data were processed

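Biotin-labelled cRNA made from total RNA of sorted CD45+ cells was hybridised to 28 1-colour Affymetrix arrays. The deposited values are log2 intensities; per the submitters' processing notes they were made with RMA and Partek 6.6, and the values were used as deposited, with no further scaling. Of 45141 probe sets, 28898 named 1 gene, 551 several and 15692 none in the platform annotation of 2016; 17097 genes were kept, 1 probe set each. No label says that arrays of a group came from separate mice, so p-values measure the spread between arrays, whose small number limits precision.

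Groups came from titles and genotype labels. limma 3.58.1 (R 4.3.3) was fitted with 12 group means over 28 arrays, eBayes with an intensity trend, and 19 comparisons, 1 of them added after seeing the data; the procedure was tested on simulated data. The members and lists were chosen with earlier results of these data known. Values of every array are given for the members with the smallest adjusted p of each comparison (6 for means over settings or a tumour, 3 for the others, 2 with their p where none passed), and the highest and lowest difference is named; of other lists, up to 3 genes with the smallest adjusted p are named. Some further genes of the lists and members of each role were added after their values were seen. Alternatives were a filter on low values, the mean over probe sets, subtraction of the 75th percentile, cyclic loess, no variance trend, the compared groups alone, a replicate block, no B16 day 18 arrays, and each array left out. Deviations of arrays with the same number correlated between -0.28 and 0.20, so the numbers were not taken as pairs.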

Additional observations from a re-analysis of the deposited data

Results flagged for a closer look

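The genotype effect of some genes differed between tumours or times by a test of the difference itself (limma, log2). In B16 minus MC38 this held for Irf9 (0.36, higher in B16), Oasl2 (-0.67) and Oas2 (-0.46). In B16 day 12 minus early it held for Oas2 (-1.88), Oasl2 (-1.60) and Oasl1 (-1.73). In B16 day 18 minus early it held for Cmpk2 (1.47), Samd9l (0.81) and Ifit1 (1.35). In B16 day 18 minus day 12, a comparison chosen after the opposite directions were seen, it held for Oasl2 (1.98), Ifit2 (1.54) and Cmpk2 (1.30). The comparisons that involve B16 day 18 or both tumours cross sets of arrays, whose part was not tested.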

How the results depend on the processing

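Of 123 differences of named genes, 83 kept their direction and their side of the threshold under every setting tried, apart from leaving out single arrays, and 1 changed sign: Samd9l over the B16 days was -0.00092 without the B16 day 18 arrays. Groups of 2 or 3 arrays limit every count. With the compared groups alone, the members called were 11 in B16 day 12 minus early (5 as reported), 2 at MC38 day 12 (4), 8 at MC38 day 18 (1), 15 over time in MC38 controls (6) and 0 over time in MC38 Nrp1-deleted hosts (1). The share of all genes passing in these fits was 10%, 4.23%, 10.9%, 15.7% and 0.708%. As reported it was 6.29%, 8.59%, 5.36%, 8.94% and 1.94%, in the same order. Without the B16 day 18 arrays, 7 were called in B16 minus MC38 (4), where 13% of all genes passed (14% as reported). The promoter core with 1 mismatch was in 20 genes (8). The causes were not tested, except that the compared groups alone use fewer arrays for the spread.

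Leaving out 1 array in turn gave 2 to 5 calls in B16 day 12 minus early, 2 to 5 in day 18 minus early, 2 to 6 in B16 minus MC38, 0 to 1 in MC38 day 18 minus day 6, 6 to 10 at B16 day 12, 8 to 14 at B16 day 18, 1 to 6 at MC38 day 12, 0 to 1 at MC38 day 18, 0 to 1 at MC38 day 6, 12 to 17 over time in B16 controls, 1 to 2 over time in MC38 controls and 0 to 3 over time in MC38 Nrp1-deleted hosts. A group left with 1 array was assumed to vary like the others. In the fits with the fewest calls at B16 day 12 and over time in B16 controls, the share of all genes passing fell too.

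With the replicate number as a block, 3 members were called in B16 day 12 minus early (5 without it) and 2 in day 18 minus early (4). Of all genes, 5.47% (6.29% without it) and 4.05% (4.85%) passed there. Counts in the other genotype comparisons stayed within 1.5 times. The numbers were not taken as pairs. Deviations of same-numbered arrays correlated between -0.28 and 0.20, which in groups of 2 or 3 arrays cannot exclude a pairing.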
